A study of Mus musculus with 8 samples.

Results

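The genes of mitosis and of the G2 phase before it were followed in bone marrow-derived mast cells (BMMCs) that had received Cas9 ribonucleoproteins (RNPs) against *Zc3h12a* or with a scrambled guide. The set was a list of 50 gene symbols, each matched by name to the rows of the count files and placed by function in 7 groups. Of these 50 genes, 49 were among the 24059 symbols of the files, and all 49 passed the filter on low counts that 14934 genes passed. *Hjurp*, a chaperone that loads the centromere histone, was not analysed here.

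A cell enters mitosis when cyclin B binds and activates the kinase CDK1, after which chromosomes condense, the spindle forms, and kinetochores attach each chromosome to spindle microtubules. The spindle checkpoint holds the cell until all chromosomes are attached, then the anaphase-promoting complex marks cyclin B for destruction, the chromatids part and the cell body divides. Most of these genes are transcribed late in the cell cycle and repressed in resting cells, so their mRNA in a bulk sample is commonly read as a sign of cycling cells. In bulk RNA, a change in the number of cells in G2 and M and a change of these mRNAs per cell cannot be told apart.

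The study asked what loss of Regnase-1, the RNase that *Zc3h12a* encodes, does to mRNA in resting mast cells. Total bone marrow of C57BL/6 mice, 6 to 8 wk old, was grown with IL-3 for at least 4 wk into BMMCs, which are mast cells derived in vitro. Cells were electroporated with RNPs of Cas9 and 3 guides against *Zc3h12a* or 1 non-targeting guide, and poly(A) RNA was sequenced 1 wk later. Each RNP had 4 samples, numbered 1 to 4, and 4 mice are named as the source of the 8 samples. No label ties a sample to a mouse, so that taking equal numbers of both RNPs as pairs is a reading of the design. Their genotypes are labelled *Zc3h12a* WT with scrambled RNP and *Zc3h12a* KO with *Zc3h12a* RNP; both came from C57BL/6 marrow, and all samples had been electroporated with Cas9. The *Zc3h12a* RNP samples were bulk populations rather than clones, and the share of edited cells was not measured here.

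Total counts per sample were 19610240 to 33986762 with scrambled RNP and 23712029 to 28564062 with *Zc3h12a* RNP, and scrambled RNP replicate 4 had the fewest. A member had between 139 raw counts (*Ttk*) and 20470 (*Mki67*) in a sample. *Zc3h12a* itself was at 34.8 ± 6.65 CPM with scrambled RNP and 33.2 ± 5.91 with *Zc3h12a* RNP (SD, n = 4 each; CPM are counts scaled to a common library total), so its mRNA level gave no check of the editing. The labelled cell type was reflected in its markers: 12 mast cell genes summed to between 59929 and 69350 CPM with scrambled RNP and between 56550 and 60344 with *Zc3h12a* RNP. *Cpa3* was the largest part of the sum in every sample, between 26727.5 and 34240.4 CPM. However, *Tpsab1* was at or near 0, and *Mcpt4* was between 2.24 and 7.94 CPM. Of the 11 mast cell genes tested, 10 lay below 0 in log2 fold change, as 42.2% of all genes tested did, and 3 of them had an unadjusted p at or under 0.05, beside 4.05% of all genes tested. Summed markers of other cells were between 8.90 and 12.3 CPM for 8 macrophage genes, 1.10 and 6.19 for 6 B cell genes, 0.900 and 6.00 for 6 T cell genes, 3.42 and 7.80 for 6 erythroid genes, and 0.0634 and 0.333 for 4 neutrophil genes. The lists for basophils, between 445 and 542 CPM, and for megakaryocytes, between 1263 and 2026 CPM, were carried almost wholly by *Cd200r3* and *Itga2b*, and their other genes were low. *C1qa*, *C1qb*, *S100a9* and *Ly6g* had 0 counts in all scrambled RNP samples, and *Cd8a* in all samples. The part of other cells in the values of the mitosis genes was not tested.

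Promoters of many mitosis genes carry a cell cycle genes homology region (CHR), which MuvB complexes bind, and CCAAT boxes, which NF-Y binds. In RefSeq's windows from 250 bases before to 50 bases after each gene's start (GRCm38.p6), 41 of the 49 genes had an entry. The letters TTTGAA or TTCGAA, on either strand, stood in the windows of 31 of these 41 genes (75.61%), against 17.55% of 11641 tested genes with a window and 21.66% of all genes in the table. The share was 46.07% among other mitosis genes and 21.43% among DNA replication genes. CCAAT stood in the windows of 78.05% of the members, 60.67% of other mitosis genes, 60.71% of DNA replication genes and 43.17% of tested genes. CHR letters and CCAAT stood together in 65.85%, 32.58%, 17.86% and 7.259% of these. Such a match is a description of the letters and not a site. CCAAT was searched on both strands, TTCGAA reads the same on both, and neighbouring CHR and CCAAT matches may share a base. The CHR match nearest the start is printed here for 7 members, from 6 of the 7 functional groups, to let their shared letters be seen. Each is read 5′ to 3′ along the gene with the CHR letters in capitals:
Cdk1: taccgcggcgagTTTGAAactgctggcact
Cdc20: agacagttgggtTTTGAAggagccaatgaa
Bub1: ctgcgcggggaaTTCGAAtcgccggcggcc
Plk1: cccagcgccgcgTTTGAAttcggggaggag
Ect2: cgactggattttTTTGAAtcggaggcggca
Gas2l3: ctgattggctccTTCGAAacaggcggccgc
Mki67: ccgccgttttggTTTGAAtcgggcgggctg
By exact match of the window to GRCm39 these lie at chr10:69188740-69188769 (*Cdk1*), chr4:118294541-118294570 (*Cdc20*), chr2:127673748-127673777 (*Bub1*), chr7:121758676-121758705 (*Plk1*), chr3:27207971-27208000 (*Ect2*), chr10:89279820-89279849 (*Gas2l3*) and chr7:135318189-135318218 (*Mki67*). The gene is on the plus strand for *Plk1* and on the minus strand for the other 6. The letters begin 15 bases before the RefSeq start in *Cdk1*, 18 before it in *Cdc20*, 8 before it in *Gas2l3* and 98 before it in *Mki67*. They begin 14 bases after it in *Bub1*, 30 after it in *Plk1* and 15 after it in *Ect2*. GENCODE annotates an untranslated part of an exon of the same gene at the letters in 6 of the 7, and nothing at those of *Gas2l3*. Those of *Ect2* also lie inside the gene 1700125G22Rik of the other strand. *Bub1* and *Gas2l3* hold the TTCGAA form and the other 5 hold TTTGAA. The members with CHR letters had a median log2 fold change of 0.31 (n = 31, range -0.018 to 0.47) after *Zc3h12a* RNP, and those without had 0.33 (n = 10, range 0.24 to 0.42).

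The study called genes at a log2 fold change beyond 0.5 and P of 0.05 or less, combining DESeq2, edgeR and limma. It named no adjustment, and listed *Cdk1* and *Cks1b* among its most changed genes. For the genes it called higher in these samples, it reported many gene ontology terms of cell cycle control and of DNA replication and repair. In separate assays it found proliferation reduced after loss of Regnase-1. After knockdown of Regnase-1 it found a larger share of cells in G1 and a smaller share in S phase. Here p was Benjamini-Hochberg adjusted, and no mitosis gene passed. The quasi-likelihood test of edgeR, with replicate number as a block, called 0 of 49 higher or lower after *Zc3h12a* RNP. It called 0% of all genes tested higher. No member lay above 0.5 in this fit, so none passed with an unadjusted p either. Of the 49 genes, 48 (98.0%) had a log2 fold change above 0, where 57.8% of all genes tested did. *Gas2l3*, with -0.018, was the exception. The 49 genes were read in the same 8 samples, and pair 4 held the largest difference in each. These genes are therefore not 49 separate observations. Their median was 0.32, a 1.25-fold level, beside 0.038 for all genes tested and -0.0064 for the 7888 genes in the same range of log2 CPM, of which 47.9% were above 0. An unadjusted p at or under 0.05 in the same direction was reached by 12 members (24.5%). Of all genes tested 2.12% reached it, and of the 7888 genes of like level 3.47%. Without the pairing by replicate number 0 members reached it, and with all 8 samples other settings gave 2 to 32. These 12 were *Cdk1*, *Ccnb1*, *Cdc25c*, *Bub1*, *Ttk*, *Mad2l1*, *Ndc80*, *Nuf2*, *Psrc1*, *Gtse1*, *Ect2* and *Anln*. Their lowest adjusted p was 0.512 in edgeR's test, for *Ndc80*. The groups overlapped in all 49 genes, and only 0.261% of all genes tested had higher groups that did not overlap, so this was near the background. Overlap of the groups also sets the pairing aside. In edgeR's fit with the block on all 8 samples, the highest upper bound of a 95% interval was 0.93 on the log2 scale, and no interval reached 1.

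**Figure D1:**
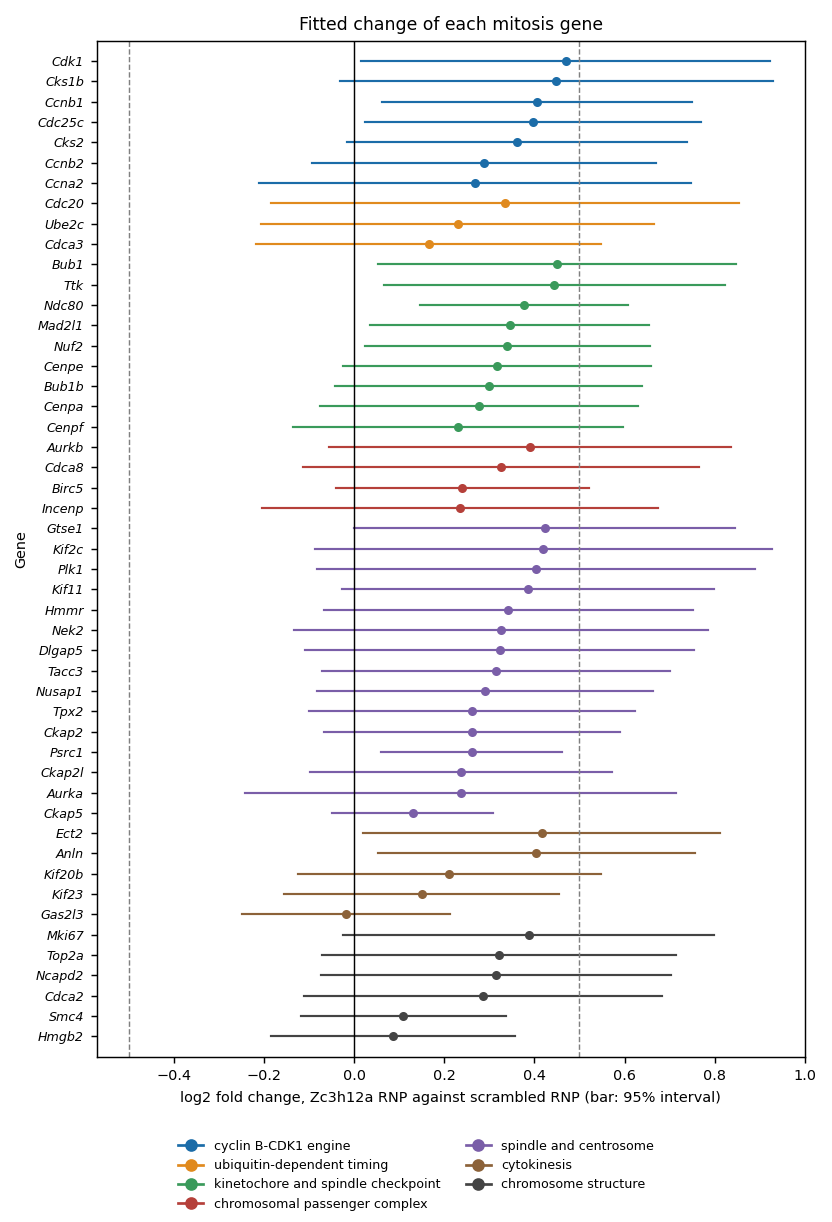
Fitted log2 fold change (points) with its 95% interval (bars) for the 49 mitosis genes, *Zc3h12a* RNP against scrambled RNP, from edgeR's model with the replicate block on 4 samples per RNP. All points but *Gas2l3* lie above 0 and below the dashed line at 0.5, and 12 intervals lie wholly above 0.

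By level per kilobase of exon, *Mki67*, the Ki-67 protein that coats mitotic chromosomes, stood highest with 56.9 CPM per kilobase over all samples, followed by *Hmgb2* with 51.1, *Cks2* with 32.5 and *Ckap2l* with 32.4. The lowest was *Ttk* with 1.80. The median member was at 10.5 CPM per kilobase, and 45 of the 49 lay above the median level of all genes with a known length. The mitosis genes were thus well expressed in both groups, with a median level per kilobase of 9.29 CPM with scrambled RNP and 11.4 with *Zc3h12a* RNP. Exon lengths were those of all annotated transcripts of a gene joined, which lowers the level per kilobase of genes with long or many isoforms, such as *Cenpa* with 13.4 kilobases.

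**Figure D2:**
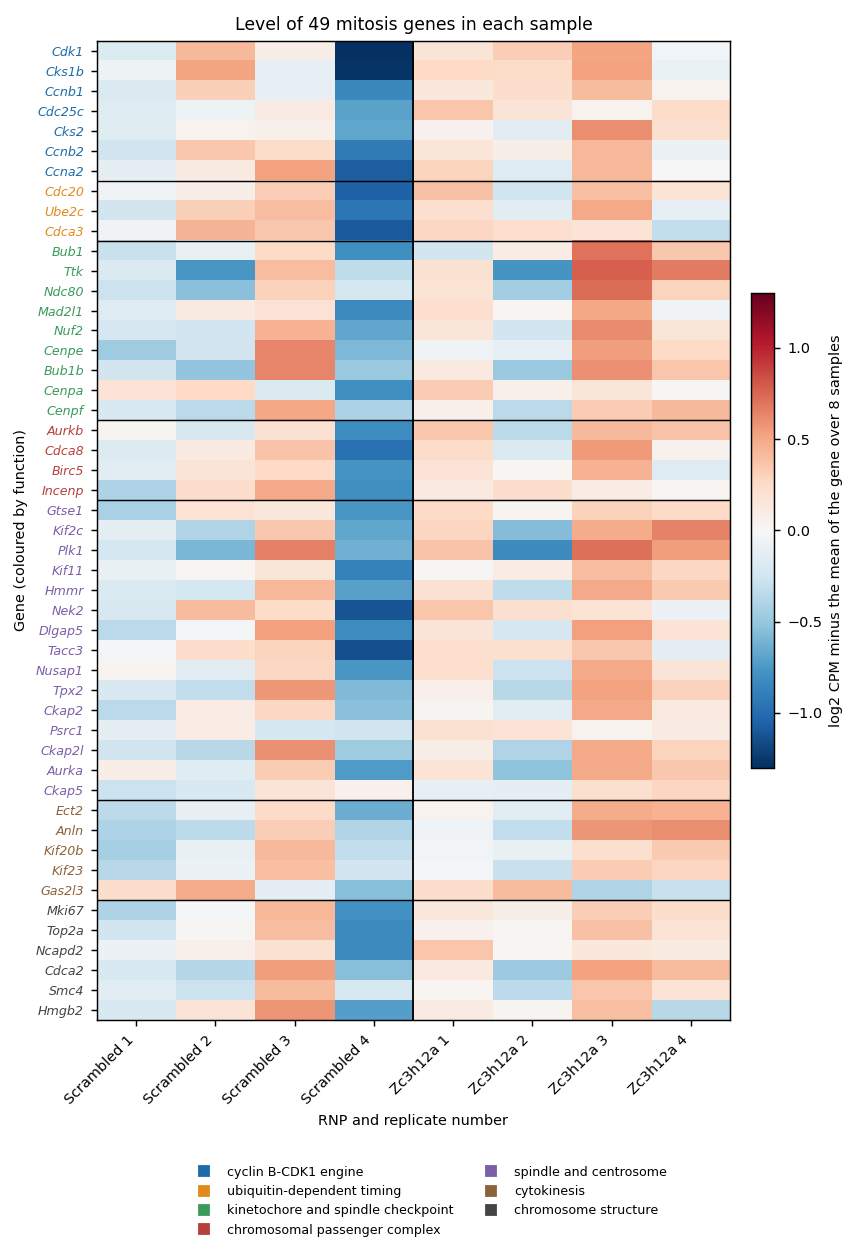
Level of each of the 49 mitosis genes (rows, by function) in each of the 8 samples (columns), as log2 CPM minus the gene's mean over the 8 samples, blue below and red above it. Scrambled RNP replicate 4 is the lowest sample for 40 genes, and replicate 3 is the highest of its group for 39 genes with scrambled RNP and for 36 with *Zc3h12a* RNP.

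The cyclin B-CDK1 engine had the highest median change of the 7 functional groups, 0.40 over 7 genes, all above 0 and 3 with an unadjusted p at or under 0.05 in edgeR's test. Values of 4 samples are given here in the order of replicates 1 to 4. *Cdk1*, the kinase that starts mitosis, was at 49.5, 74.9, 59.1 and 22.7 CPM with scrambled RNP and 62.7, 69.7, 79.5 and 54.6 CPM with *Zc3h12a* RNP. Its lowest sample was scrambled RNP replicate 4 and its highest *Zc3h12a* RNP replicate 3, and within pairs 1 to 4 the log2 difference was 0.34, -0.10, 0.43 and 1.27. The fitted log2 fold change of *Cdk1*, 0.47 with a standard error of 0.19, was the largest of all members, with a p of 0.0442 and an adjusted p of 0.787. *Ccnb1*, cyclin B1, was at 29.0, 41.2, 30.8 and 18.6 CPM with scrambled RNP and 36.5, 38.8, 44.3 and 34.3 CPM with *Zc3h12a* RNP. The 3 highest samples of *Ccnb1* were thus replicate 2 of both RNPs and *Zc3h12a* RNP replicate 3, and the pairs differed by 0.33, -0.086, 0.53 and 0.88. Its log2 fold change was 0.41 ± 0.15 (SE, unadjusted p = 0.0262, adjusted p = 0.700). *Cdc25c*, the phosphatase that removes the inhibitory phosphates from CDK1, was low, at 11.6, 12.3, 13.9 and 7.95 CPM with scrambled RNP and 16.5, 14.4, 13.3 and 15.2 CPM with *Zc3h12a* RNP. Only 1 scrambled RNP sample, replicate 3, lay above the lowest *Zc3h12a* RNP sample. *Cdc25c* differed by 0.51, 0.23, -0.065 and 0.93 in the pairs, with a log2 fold change of 0.40 ± 0.16 (SE, unadjusted p = 0.03996, adjusted p = 0.772), and it was the member highest in pair 2.

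*Cks2*, a small subunit that binds CDKs and had the highest level per kilobase of this engine, was at 30.9, 35.6, 36.1 and 21.6 CPM with scrambled RNP and 35.9, 31.4, 52.3 and 40.0 CPM with *Zc3h12a* RNP, with pair differences of 0.22, -0.18, 0.53 and 0.89. Its log2 fold change was 0.36 ± 0.16 (SE, adjusted p = 0.829 in edgeR's test). *Ccna2*, cyclin A2, which acts from S phase on, was at 102, 120.4, 159.6 and 53.0 CPM with scrambled RNP and 135, 98.7, 150.1 and 111 CPM with *Zc3h12a* RNP. Higher in pairs 1 and 4 and lower in pairs 2 and 3 (0.40, -0.29, -0.089 and 1.07), *Ccna2* had a log2 fold change of 0.27 ± 0.21 (SE, adjusted p = 0.960). The sister subunit *Cks1b* and the second B-type cyclin *Ccnb2* had log2 fold changes of 0.45 and 0.29 (adjusted p = 0.844 and 0.946). *Cks1b* had the widest scrambled RNP range of all members, 3.45-fold between its highest and lowest sample. *Cks1b* and *Cks2* belong to a family with closely similar copies, and how reads with several matches were counted is not given in the sources used here.

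Ubiquitin-dependent timing had a median of 0.23 over 3 genes, all above 0 and none with a p at or under 0.05. *Ube2c*, the ubiquitin-conjugating enzyme of the anaphase-promoting complex, was at 82.6, 121, 129 and 50.9 CPM with scrambled RNP and 113, 88.9, 138 and 90.4 CPM with *Zc3h12a* RNP. Its difference in pair 2 was the lowest of any member in that pair (0.46, -0.45, 0.092 and 0.83 in pairs 1 to 4), and its log2 fold change was 0.23 ± 0.19 (SE, adjusted p = 0.960 in edgeR's test). *Cdca3*, which acts in the removal of the CDK1 inhibitor WEE1, was at 78.2, 109.6, 103 and 38.0 CPM with scrambled RNP and 97.3, 93.9, 91.2 and 64.8 CPM with *Zc3h12a* RNP. In 2 pairs it was higher and in 2 lower (0.31, -0.22, -0.17 and 0.77), with a log2 fold change of 0.17 ± 0.16 (SE, adjusted p = 0.960) that became -0.026 without replicate 4. The activator of the complex, *Cdc20*, had the largest standard error of the members, 0.22, around a log2 fold change of 0.34 (adjusted p = 0.960).

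Kinetochore and spindle checkpoint genes held 5 of the 12 members with a p at or under 0.05, out of 9 tested, with a median log2 fold change of 0.34 and all 9 above 0. *Bub1*, a checkpoint kinase at the kinetochore, was at 16.6, 19.0, 24.5 and 11.8 CPM with scrambled RNP and 17.2, 21.8, 33.2 and 26.0 CPM with *Zc3h12a* RNP. It was higher in all 4 pairs (0.050, 0.20, 0.44 and 1.14), with a log2 fold change of 0.45 ± 0.17 (SE, unadjusted p = 0.0311, adjusted p = 0.741 in edgeR's test). *Ndc80*, of the complex that grips microtubules at the kinetochore, was at 13.4, 11.2, 20.04 and 13.9 CPM with scrambled RNP and 18.4, 11.9, 27.0 and 19.9 CPM with *Zc3h12a* RNP. It too was higher in 4 of 4 pairs (0.45, 0.094, 0.43 and 0.51), and its log2 fold change of 0.38 had the lowest p of all members (standard error 0.099, unadjusted p = 0.00574, adjusted p = 0.512). Its partner *Nuf2* was at 33.7, 33.2, 53.9 and 24.6 CPM with scrambled RNP and 44.0, 33.2, 60.2 and 44.0 CPM with *Zc3h12a* RNP. *Nuf2* was level in pair 2 (0.38, -0.0030, 0.16 and 0.83), with a log2 fold change of 0.34 ± 0.14 (SE, unadjusted p = 0.0382, adjusted p = 0.771). Within each RNP, replicate 3 was the highest sample of *Bub1*, *Ndc80* and *Nuf2*.

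*Ttk*, the MPS1 kinase that starts the checkpoint signal, was at 9.003, 6.06, 13.6 and 8.18 CPM with scrambled RNP and 11.8, 6.02, 17.6 and 16.4 CPM with *Zc3h12a* RNP, and replicate 2 was the lowest sample of each RNP. The 2.92-fold range of *Ttk* among *Zc3h12a* RNP samples was the widest of all members, beside a log2 fold change of 0.44 ± 0.16 (SE, unadjusted p = 0.0272, adjusted p = 0.713 in edgeR's test). *Mad2l1*, the MAD2 protein that holds back CDC20, was at 48.2, 58.5, 61.4 and 30.5 CPM with scrambled RNP and 62.8, 55.2, 76.6 and 52.2 CPM with *Zc3h12a* RNP. It differed by 0.38, -0.084, 0.32 and 0.78 in the pairs, a log2 fold change of 0.35 ± 0.13 (SE, unadjusted p = 0.0330, adjusted p = 0.744). *Bub1b*, the BUBR1 protein of the checkpoint complex and the highest of this group per kilobase, was at 41.6, 34.3, 76.0 and 35.1 CPM with scrambled RNP and 53.4, 35.1, 74.2 and 63.0 CPM with *Zc3h12a* RNP, with a log2 fold change of 0.30 ± 0.15 (SE, adjusted p = 0.870). *Cenpe*, a kinesin that moves chromosomes to the spindle equator, was at 56.1, 65.5, 119.6 and 51.5 CPM with scrambled RNP and 74.4, 71.4, 112 and 92.1 CPM with *Zc3h12a* RNP, with 0.32 ± 0.15 (SE, adjusted p = 0.844) as its log2 fold change. *Bub1b* and *Cenpe* were highest in scrambled RNP replicate 3, above every *Zc3h12a* RNP sample. The centromere histone *Cenpa* and the kinetochore protein *Cenpf* had log2 fold changes of 0.28 and 0.23 (adjusted p = 0.924 and 0.960).

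The chromosomal passenger complex, which corrects wrong attachments and moves to the midzone at anaphase, had a median of 0.28 over its 4 genes. All were above 0 and none had a p at or under 0.05 in edgeR's test. *Incenp*, its scaffold, was at 76.4, 118, 142 and 57.8 CPM with scrambled RNP and 110.1, 118, 107.5 and 102 CPM with *Zc3h12a* RNP. The *Incenp* difference in pair 3 was the lowest of any member there (0.53, -0.0017, -0.40 and 0.82 in pairs 1 to 4), and its log2 fold change was 0.23 ± 0.19 (SE, adjusted p = 0.960). *Birc5*, survivin, was at 44.1, 54.7, 58.2 and 28.7 CPM with scrambled RNP and 55.2, 49.6, 66.5 and 43.5 CPM with *Zc3h12a* RNP, with pair differences of 0.32, -0.14, 0.19 and 0.60 and a log2 fold change of 0.24 ± 0.12 (SE, adjusted p = 0.890). The kinase of the complex, *Aurkb*, and its borealin subunit, *Cdca8*, had log2 fold changes of 0.39 and 0.33 (adjusted p = 0.870 and 0.956). *Zc3h12a* RNP replicate 2 stood apart in *Aurkb*, at 21.3 CPM where the other 3 of its group were at 34.6 to 36.4.

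Spindle and centrosome genes, 15 in number, had a median log2 fold change of 0.31 with a range of 0.13 (*Ckap5*) to 0.42 (*Gtse1*). *Gtse1*, a microtubule-bound protein of G2 and S phase, was at 26.2, 40.3, 38.7 and 20.9 CPM with scrambled RNP and 42.3, 36.1, 43.5 and 42.2 CPM with *Zc3h12a* RNP, where the 4 samples lay close together. The *Gtse1* difference in pair 1 was the largest of any member in that pair (0.69, -0.16, 0.17 and 1.01 in pairs 1 to 4), and the log2 fold change of 0.42 ± 0.18 (SE, unadjusted p = 0.04996, adjusted p = 0.810 by edgeR) was the largest of this group. *Psrc1*, which acts on spindle microtubules, was at 19.1, 22.4, 17.8 and 17.5 CPM with scrambled RNP and 24.0, 23.7, 21.6 and 22.5 CPM with *Zc3h12a* RNP. It had the narrowest range of the members in both groups, 1.28-fold and 1.11-fold between the highest and lowest sample, and only scrambled RNP replicate 2 overlapped the other group. *Psrc1* was higher in all 4 pairs (0.32, 0.080, 0.28 and 0.36), with a log2 fold change of 0.26 ± 0.086 (SE, unadjusted p = 0.0175, adjusted p = 0.686). Of its variation in log2 CPM, 59.3% of the sum of squares lay between RNPs, the largest such share among the members.

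*Ckap2l*, a spindle protein and the highest of this group per kilobase, was at 92.8, 86.2, 167 and 80.6 CPM with scrambled RNP and 118, 84.4, 155 and 136 CPM with *Zc3h12a* RNP. In it replicate 3 was the highest sample of both RNPs, and the log2 fold change was 0.24 ± 0.14 (SE, adjusted p = 0.960 in edgeR's test). *Tpx2*, which activates Aurora A on the spindle, was at 98.4, 90.2, 166 and 75.5 CPM with scrambled RNP and 118, 87.8, 162 and 139 CPM with *Zc3h12a* RNP, with a log2 fold change of 0.26 ± 0.16 (SE, adjusted p = 0.960). The pair differences of *Tpx2* were 0.26, -0.039, -0.043 and 0.88, so that pairs 2 and 3 were close to level and pair 4 was not. The mitotic kinases *Plk1*, *Aurka* and *Nek2* had log2 fold changes of 0.40, 0.24 and 0.33 (adjusted p = 0.903, 0.960 and 0.960). Among the motors, *Kif2c*, which takes microtubules apart, had 0.42 and *Kif11*, which pushes the spindle poles apart, had 0.39 (adjusted p = 0.904 and 0.844). *Kif11* and *Ckap5*, a microtubule polymerase, were higher in all 4 pairs. The largest pair difference of any member was the 1.32 of *Kif2c* in pair 4. The other spindle genes, *Tacc3*, *Nusap1*, *Hmmr*, *Dlgap5* and *Ckap2*, had log2 fold changes of 0.31, 0.29, 0.34, 0.32 and 0.26, with none at a p of 0.05 or less.

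Cytokinesis had the lowest median of the 7 groups, 0.21 over 5 genes. *Ect2*, the exchange factor that activates RhoA at the cleavage site, was at 28.5, 33.5, 42.7 and 23.0 CPM with scrambled RNP and 37.2, 32.6, 50.3 and 49.4 CPM with *Zc3h12a* RNP. It differed by 0.38, -0.037, 0.24 and 1.10 in the pairs, a log2 fold change of 0.42 ± 0.17 (SE, unadjusted p = 0.0420, adjusted p = 0.772 in edgeR's test). *Anln*, an actin scaffold of the contractile ring, was at 20.4, 21.2, 33.5 and 20.6 CPM with scrambled RNP and 26.0, 21.6, 39.9 and 40.9 CPM with *Zc3h12a* RNP. Its scrambled RNP replicate 3 stood apart from the other 3, and it was higher in all 4 pairs (0.35, 0.028, 0.25 and 0.99), with a log2 fold change of 0.40 ± 0.15 (SE, unadjusted p = 0.0291, adjusted p = 0.718). *Gas2l3*, which links actin and microtubules and was the highest of this group per kilobase, was at 127, 151, 99.3 and 74.0 CPM with scrambled RNP and 127, 144, 82.7 and 88.9 CPM with *Zc3h12a* RNP. In *Gas2l3* replicate 2 was the highest sample of both RNPs and replicates 3 and 4 were the lowest, so that 93.2% of its sum of squares lay between replicates. It was the only member below 0 in 3 pairs (-0.00064, -0.070, -0.26 and 0.26), with a log2 fold change of -0.018 ± 0.099 (SE, adjusted p = 0.981). *Kif23*, the motor of centralspindlin, was at 63.5, 77.4, 106.6 and 68.5 CPM with scrambled RNP and 80.5, 66.5, 103 and 98.8 CPM with *Zc3h12a* RNP, with a log2 fold change of 0.15 ± 0.13 (SE, adjusted p = 0.960). Another kinesin of the midbody, *Kif20b*, had 0.21 (adjusted p = 0.960).

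Chromosome structure genes had a median of 0.30 over 6 genes, none with a p at or under 0.05, and made up the largest part of the summed level, 1251 ± 408 CPM with scrambled RNP and 1473 ± 145 with *Zc3h12a* RNP (SD, n = 4 each). *Mki67* was at 429, 559.8, 764 and 327 CPM with scrambled RNP and 627, 599, 707 and 665 CPM with *Zc3h12a* RNP. The *Zc3h12a* RNP samples of *Mki67* lay within the scrambled RNP range, and the pairs differed by 0.55, 0.096, -0.11 and 1.02, a log2 fold change of 0.39 ± 0.18 (SE, adjusted p = 0.843 in edgeR's test). *Hmgb2*, a DNA-bending protein of dividing cells, was at 172, 223, 294 and 120.1 CPM with scrambled RNP and 213, 203, 259 and 154 CPM with *Zc3h12a* RNP. It had the smallest change of this group, 0.086 ± 0.12 (SE, adjusted p = 0.960), with higher values in 2 pairs and lower in 2 (0.31, -0.14, -0.18 and 0.36); close copies of *Hmgb2* exist in the genome. *Top2a*, which untangles the chromatids, and the condensin subunits *Ncapd2* and *Smc4* had log2 fold changes of 0.32, 0.31 and 0.11 (adjusted p = 0.906, 0.912 and 0.960). *Cdca2*, which brings a phosphatase to chromosomes at the end of mitosis, had 0.29 (adjusted p = 0.960).

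The direction seen over 48 members rested unevenly on the 4 pairs. In pair 4 all 49 genes were higher with *Zc3h12a* RNP, from 0.23 (*Ckap5*) to 1.32 (*Kif2c*), with a median of 0.92. Pair 1 had 48 genes higher and a median of 0.35, and pair 3 had 30 higher and 19 lower with a median of 0.074. Pair 2 went the other way, with 37 genes lower, 12 higher and a median of -0.086. Of all 14934 genes tested, 8072, 7651, 7608 and 6615 were higher in pairs 1 to 4. Their medians were 0.027, 0.0089, 0.0076 and -0.059. Of the 7888 genes in the members' range of log2 CPM, 3417, 2456, 3939 and 4967 were higher. Their medians were -0.031, -0.091, -0.00051 and 0.077, so in pair 2 the members lay near genes of like level. Pair 4 held the largest difference of the 4 pairs in all 49 members, and pair 2 the lowest in 34. By number of pairs, 6 members were higher in all 4, 30 in 3, 12 in 2 and 1 in 1. Higher in all 4 were thus 12.2% of the members, beside 4.98% of all genes tested and 6.02% of the 7888 genes of like level. The 6 were *Bub1*, *Ndc80*, *Kif11*, *Ckap5*, *Psrc1* and *Anln*. Functional groups did not keep 1 order over the pairs: in pair 3 the engine had a median of 0.43 and the kinetochore genes 0.32, while cytokinesis and chromosome structure had -0.053 and -0.054. In pair 2 the kinetochore genes, at 0.0064, were the only group with a median above 0.

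**Figure D3:**
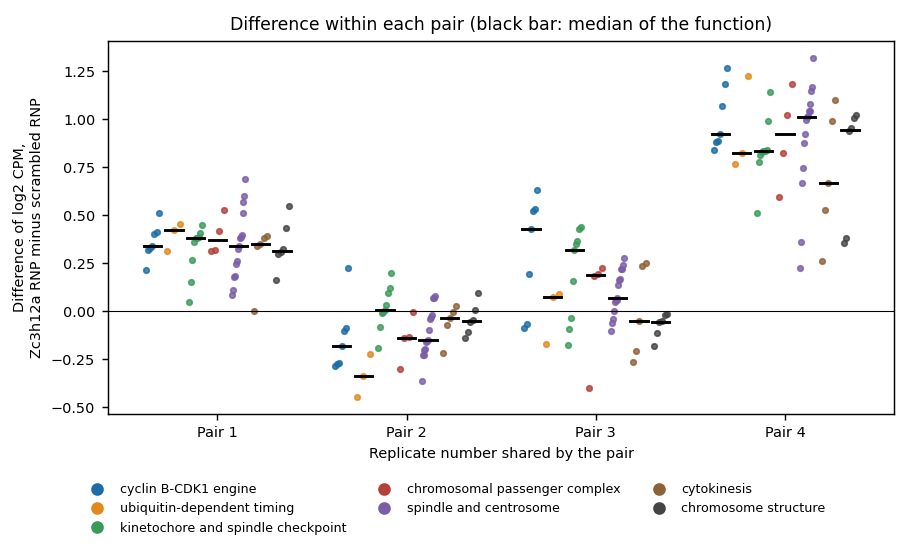
Difference of log2 CPM, *Zc3h12a* RNP minus scrambled RNP, within each pair of the same replicate number; each point is 1 of 49 mitosis genes, coloured by function, and black bars are medians of the function. All points of pair 4 lie above 0, and 37 of the 49 in pair 2 lie below it.

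The lowest summed level was that of scrambled RNP replicate 4. The summed level of the 49 genes was 3190, 3743, 4757 and 2307 CPM in scrambled RNP replicates 1 to 4 and 4065, 3575, 4765 and 4080 CPM in *Zc3h12a* RNP replicates 1 to 4. The sums differed 2.06-fold between the highest and lowest scrambled RNP sample and 1.33-fold among *Zc3h12a* RNP samples, and the means were 3499 ± 1026 and 4121 ± 489 CPM (SD, n = 4 each). Within pairs 1 to 4 the ratio was 1.27, 0.955, 1.00 and 1.77. Scrambled RNP replicate 4, also the sample with the fewest counts, was the lowest of the 8 samples in 40 members. Replicate 3 was the highest of its RNP in 39 members with scrambled RNP and in 36 with *Zc3h12a* RNP. In 43 of 49 members the scrambled RNP samples spanned the wider range, with a median of 2.09-fold against 1.55-fold. The share of a gene's sum of squares that lay between replicate numbers had a median of 57.1% over the members, against 14.9% between RNPs and 27.4% in the rest. Over all genes tested these medians were 69.7%, 4.37% and 19.3%. The part between RNPs has fewer degrees of freedom than the other parts.

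**Figure D4:**
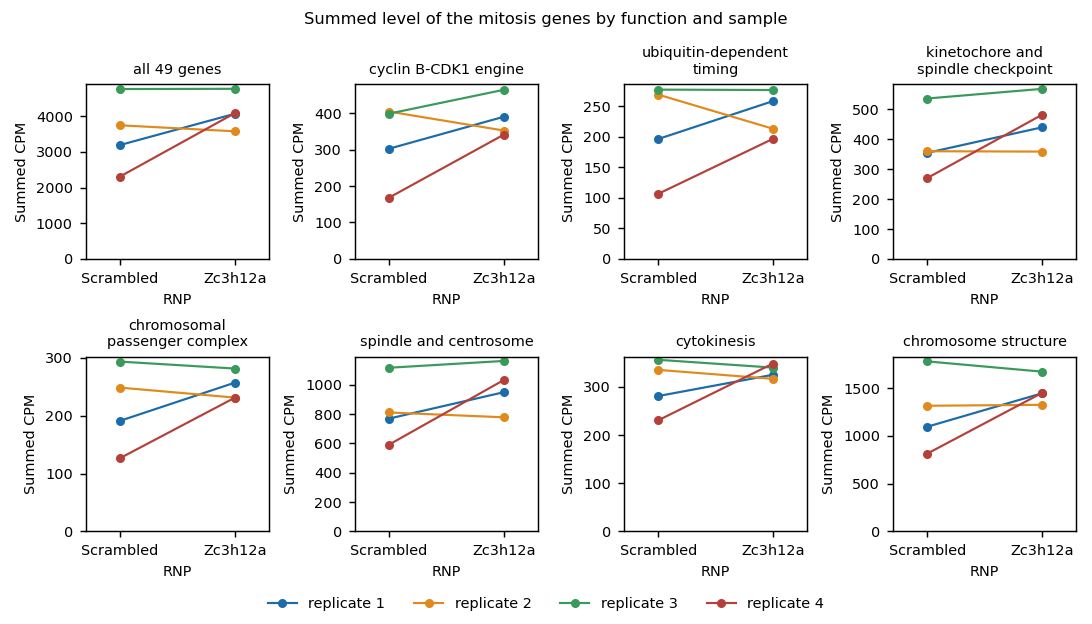
Summed CPM of the mitosis genes, all 49 and by function, in each sample; lines join the samples of 1 replicate number. Replicate 4 (red) goes from 2307 to 4080 CPM over all genes, replicate 1 goes from 3190 to 4065, and replicates 2 and 3 stay within 5% of their scrambled RNP value.

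Leaving out pairs moved the calls. Without replicate 4 the members' median log2 fold change was 0.11, 45 of 49 were above 0, 1 had a p at or under 0.05 with a higher level (2.88% of all genes tested did), and the largest was the 0.33 of *Ndc80*. Without replicate 2 the median was 0.51, 44 members had a p at or under 0.05 (4.58% of all genes tested did, in that direction), and 12 passed both thresholds in edgeR, where 0.53% of 15082 genes tested did in that direction. These 12 were *Cdk1* (0.73), *Cks1b* (0.76), *Ccnb1*, *Cks2*, *Cdc20*, *Ttk*, *Aurkb*, *Cdca8*, *Plk1*, *Kif2c*, *Gtse1* and *Ect2*. In that fit the degrees of freedom of the members' test went from 7.51 to 30200. On the same 6 samples limma-trend called 12 members and 0.391% of all genes higher, and DESeq2 called 0 members and 0.0992% of genes with an adjusted p. At an unadjusted p of 0.05 or less there were 45 members by limma-trend, beside 4.48% of all genes. DESeq2 gave 36, beside 2.08% of 23035 genes. With all 8 samples DESeq2 called 0 members, where 0.0601% of 11641 genes with an adjusted p were called higher. There 5 members reached an unadjusted p of 0.05, beside 0.477% of 23473 genes. DESeq2 was run without the low-count filter, so its shares of all genes include genes that edgeR left out.

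The rest of the mitotic machinery lay in the same direction with a smaller median. Of 104 further mitosis genes, 88 had a log2 fold change above 0, the median was 0.23, and 21 had an unadjusted p at or under 0.05 with higher and 1 with lower values. Over all genes tested, 57.8% were above 0, 2.12% had such a p with higher and 4.05% with lower values. The lowest adjusted p among the 104, 0.435 by edgeR, was above 0.05. Their summed level was 4938 ± 762 CPM with scrambled RNP and 5289 ± 199 with *Zc3h12a* RNP (SD, n = 4 each), and the pair medians were 0.23, -0.074, 0.12 and 0.57. Within this list the 16 genes of the anaphase-promoting complex and securin had a median of 0.082. The 9 further kinases, phosphatases and cyclins of mitotic entry had 0.36, the 33 kinetochore and checkpoint genes 0.24, the 25 spindle and centrosome genes 0.27, the 10 cytokinesis genes 0.30 and the 11 chromosome structure genes 0.094. Of 37 DNA replication genes, 36 were above 0 with a median of 0.36 and 17 reached an unadjusted p of 0.05 or less with higher values, against the same 57.8% and 2.12% of all genes, and their pair medians were 0.28, -0.029, 0.26 and 0.85.

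The transcription factors of G2/M genes were mixed. *Foxm1*, a factor that switches these genes on, was at 55.2, 92.4, 68.0 and 32.1 CPM with scrambled RNP and 82.4, 82.2, 65.8 and 68.7 CPM with *Zc3h12a* RNP, with a log2 fold change of 0.36 ± 0.20 (SE, adjusted p = 0.941 in edgeR's test). *Mybl2*, the B-MYB protein that joins MuvB in G2, was at 23.4, 33.7, 30.5 and 9.66 CPM with scrambled RNP and 34.1, 30.2, 32.2 and 21.04 CPM with *Zc3h12a* RNP, with 0.37 ± 0.19 (SE, adjusted p = 0.901). In both genes scrambled RNP replicate 4 was the lowest sample, as in most members. *Lin9* of the MuvB core and *Tfdp1*, a partner of E2F proteins, were higher in each of the 4 pairs, as 4.98% of all genes tested were. In edgeR's fit *Lin9* and *Tfdp1* had log2 fold changes of 0.23 and 0.25 (unadjusted p = 0.0324 and 0.0385, adjusted p = 0.744 and 0.772). *Rbl1*, the p107 repressor, had 0.34. The NF-Y subunits *Nfya*, *Nfyb* and *Nfyc* had -0.048, -0.089 and -0.076, *Rbl2* had -0.10 and *E2f5* had -0.063. *Nfyb* was lower in each of the 4 pairs, as were 1276 of the 14934 genes tested. *Lin37*, *Lin52*, *Rbbp4* and *E2f4* had 0.14, 0.16, 0.10 and 0.062, and none of these passed a p of 0.05.

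Exons of 10 members overlap those of a protein-coding gene on the other strand that was also counted: *Aurka*, *Ccna2*, *Cdc20*, *Cdca2*, *Cdca3*, *Cdk1*, *Ncapd2*, *Nusap1*, *Tacc3* and *Ube2c*. The longest overlaps were 794 bases of *Tacc3* with *Tmem129*, 793 of *Aurka* with *Fam210b* and 510 of *Ccna2* with *Exosc9*. The strand setting of the counting is not given in the sources used here, so reads of such exons cannot be told apart.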

How the data were processed

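Poly(A) RNA of 8 BMMC samples was sequenced. The authors checked reads with FastQC (0.11.9), aligned them to GRCm39 with HISAT2 (2.2.1) and counted them per gene symbol with featureCounts (2.0.1), and deposited raw counts, 1 file per sample. Their methods name a removal of batch effects, whereas the counts as deposited are uncorrected whole numbers. The strand setting and the treatment of reads with several matches are not given in the sources used here.

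From these counts, genes with low counts were left out (edgeR filterByExpr), libraries were scaled by TMM, and edgeR (4.0.16, R 4.3.3) fitted a quasi-likelihood model with RNP and replicate number. Calls needed more than 0.5 on the log2 scale in either direction and, after Benjamini-Hochberg adjustment, p of 0.05 or less over all 14934 genes tested. The standard error was the fold change divided by the root of the F statistic. CPM were computed on TMM-scaled libraries, and pair differences on log2 CPM with a prior count of 2. The block takes equal replicate numbers as cells of 1 mouse: 4 mice are named as the source of the 8 samples, but no label gives the mouse of a sample. Over the 9668 genes with a mean log2 CPM above 2, same-numbered samples deviated together (correlations 0.756, 0.717, 0.728 and 0.719), while over all genes tested 2 of the 4 were under 0.1 (0.075 and 0.041). Those were pairs 2 and 4, where scrambled RNP correlated more with a *Zc3h12a* RNP sample of another number (0.398 and 0.350). Over the 9668 genes the highest correlation with another number was 0.137. All pairs of samples within an RNP differed by more than sampling noise. As no source says more of the samples, p-values set the RNP difference against its spread between these 4 pairs. The variance estimate behind the p-values also draws on other genes.

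Values per sample and full statistics are given for members with an unadjusted p at or under 0.05 and for the 2 members of each function with the highest level per kilobase, the other members being given by their change. Members and lists were chosen with earlier results of these data known, and several members were among genes that the study had called from the same samples, so their direction is no independent evidence. Alternatives were DESeq2 (1.42.0), limma-trend (3.58.1), limma-trend after removal of the replicate effect, no block, RLE scaling, library size alone, no filter, at least 10 counts in every sample, and each replicate left out. DESeq2 was run on every gene that had any count, without the low-count filter. The repeats without replicate 2 by limma-trend and DESeq2 were chosen after seeing the data. The script was tested on simulated data. Promoter windows came from RefSeq's table (GRCm38.p6), placed on GRCm39 by exact match, with annotation from GENCODE M39; the match of 1 further member is not reported here. Protein letters were not used here. Intervals cover the spread of the RNP difference between pairs that is left after the block, counting error included. Their variance estimate also draws on other genes, with 7.51 degrees of freedom for the members.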

Additional observations from a re-analysis of the deposited data

Results flagged for a closer look

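In 4 of 98 groups of 4 samples (49 genes, 2 RNPs) the highest or lowest sample lay so far from the nearest other that the gap, as a share of the group's range, passed Dixon's critical value of 0.829. Chance gives about 1 in 20 such groups, or 4.9 of 98. In 3 of the 4 the sample was scrambled RNP replicate 3. That sample was the highest of its group in *Anln*, a scaffold of the contractile ring, at 33.5 CPM where the next was at 21.2 (share 0.943). It was also the highest in *Ckap2l*, a spindle protein, at 167 CPM beside 92.8 (share 0.859), and in *Smc4*, a condensin subunit, at 213 CPM beside 145 (share 0.833). The remaining one was *Aurkb*, the kinase of the chromosomal passenger complex, in which *Zc3h12a* RNP replicate 2 was the lowest of its group at 21.3 CPM where the next was at 34.6 (share 0.882).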

How the results depend on the processing

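The median log2 fold change of the mitosis genes, 0.32 in the main fit, stayed above 0 under every alternative run. It lay between 0.11 (without replicate 4) and 0.52 (without replicate 2, limma-trend), and 45 to 49 of 49 genes were above 0. These runs refit the same samples, and each kept pair 1 or pair 4, where 48 and 49 genes were higher. They therefore do not test the direction. Unadjusted counts of the mitosis genes were less stable. Beside the 12 members with a p at or under 0.05 and higher values (2.12% of all genes tested) there were 5 by DESeq2 (0.477% of all genes), 2 with RLE scaling (0.857%), 31 with library size alone (6.37%), 32 without a low-count filter (1.57%), 23 by limma-trend after removal of the replicate effect (7.65%), and 1 (without replicate 4, 2.88%) to 44 (without replicate 2, 4.58%) when a replicate was left out. Without replicate 2 there were 45 by limma-trend (4.48%) and 36 by DESeq2 (2.08%). As DESeq2 was run without the low-count filter, its shares are of 23473 genes with all samples and of 23035 without replicate 2. Without the replicate block, which sets the pairing aside, 0 members, 15 of all genes tested and 1 of the other mitosis genes had such a p, the members' median was 0.27, and no member was called in either fit. For the 104 other mitosis genes, 21 with such a p became 10 by DESeq2, 9 with RLE scaling, 41 with library size alone, 35 without the filter, 40 after removal of the replicate effect and 5 to 52 when a replicate was left out, with 51 by limma-trend without replicate 2. The members called higher, 0 with all samples, were 0 to 12 when a replicate was left out, the 12 being without replicate 2 by edgeR and limma-trend. Genes called among all tested, 0 with all samples, were 59 by DESeq2, 1 by limma-trend, 1 with RLE scaling, 113 after removal of the replicate effect, 40 without the filter, 3 with at least 10 counts in every sample, and 0 to 137 (without replicate 2) when a replicate was left out, with 112 by limma-trend and 54 by DESeq2 on the samples without replicate 2. The cause of these shifts was not tested, although the fit after removal of the replicate effect does not charge the degrees of freedom that the removal uses, and those of edgeR's test for the members were 7.51 with all samples, 91.3 without the filter and 30200 without replicate 2.

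Scaling moved the members with all genes: with library size alone the median of all genes tested was 0.11 and that of the members 0.38, and with RLE scaling these were 0.017 and 0.30. *Gas2l3*, at -0.018, was 0.050 with library size alone, 0.014 without the filter, and between -0.11 and 0.061 when a replicate was left out, with 0.062 by limma-trend and 0.046 by DESeq2 without replicate 2. *Cdca3*, *Aurka* and *Hmgb2* reached below 0 without replicate 4 only, with ranges over left-out replicates of -0.026 to 0.36, -0.030 to 0.49 and -0.0027 to 0.22. In edgeR's fit on all 8 samples, standard errors were 0.077 to 0.22. With its 4 pairs, changes of the size seen were not separable after adjustment from the spread of the RNP difference between pairs. Intervals of that fit end at or below 0.93 and do not reach a log2 fold change of 1 for any member. Intervals of the other fits were not computed. Without replicate 2, *Cks1b* and *Cdk1* had 0.76 and 0.73 with standard errors of 0.17 in edgeR. Markers of other cells, the share of edited cells and cell cycle phase were not part of any fit.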
